A study of Mus musculus with 56 samples.

Results

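Global polyadenylated PCR amplification (GA) was used on RNA of 2 mouse cell lines, 10 pg of each, and the products were compared on 4 two-color oligonucleotide arrays. These 4 hybridizations, titled 1 to 4, were chosen by their titles from 56 arrays in the series. OV is a mouse ovarian surface epithelium line and 3T3 is a mouse fibroblast line, and the labels name no treatment or genetic change in either. No source names separate cultures, so all arrays may rest on the same RNA of each line. An amount of 10 pg is close to the total RNA of 1 cell, so the comparison addresses how well the method keeps the difference between the lines at single-cell input. Of 21766 probes left after control features were dropped, 5709 (26.2%) had a ratio on all 4 arrays. These are the probes described here. The ratio from unamplified cDNA, made from 100 µg of total RNA of the same lines and compared on 4 further arrays, served as the reference. GA from 10 ng and SMART PCR from 10 pg, each on 4 arrays of the same pair of lines, were used where a difference in input or in method is described.

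In GA, first-strand cDNA is primed from the poly(A) tail of the mRNA, a second poly(A) tail is added to its end by terminal transferase, and 1 anchored oligo(dT) primer then amplifies the cDNA exponentially. SMART also amplifies by PCR, but the second primer site is added by template switching at the end of the transcript. Dilution of RNA to the content of a cell can lose transcripts at random before amplification begins, and PCR then copies whatever was reverse transcribed. Ovarian surface epithelium is a mesothelium-like layer known for Wt1, simple keratins and uroplakins, and fibroblasts are known for collagens and other matrix proteins.

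The arrays differed widely in how much they measured. A ratio was present for 5965 probes on array 1, 19243 on array 2, 15470 on array 3 and 14883 on array 4, and 1959 probes had no ratio on any of them. Array 1 thus limited the set to its own probes, since 7831 probes had a ratio on exactly 3 arrays. The deposited values hold no counts or intensities, so the signal behind a ratio is unknown. The SD of the log2 ratios was 1.06, 0.48, 0.94 and 0.91 on arrays 1 to 4, so that array 2 spread about as widely as unamplified cDNA and the others more.

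Each deposited ratio was taken to be Cy5 divided by Cy3, and its sign was set from the dye labels so that OV is the numerator; every positive log2 value here means a higher signal from OV. The study's text gives the ratio in both orders, and the direction rests on the Cy5 over Cy3 reading. Before turning, arrays 1 and 2 correlated at r = -0.80 and arrays 3 and 4 at r = -0.85 over the 5709 probes, which are opposite dye orientations in each case. After turning, the correlations were 0.80 and 0.85 within these pairs and 0.54 to 0.57 between arrays of different pairs. The study's methods describe 2 independent replicates per line with dye swaps, and the labels do not say which arrays share an amplification. If arrays 1 and 2, and arrays 3 and 4, are such swaps, the 4 arrays hold 2 amplifications of each line, and p-values from 4 separate arrays are too small. Counts with these pairs taken into account are therefore given beside the main ones. With no separate cultures named, p-values measure the spread between hybridizations and amplifications.

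**Figure D1:**
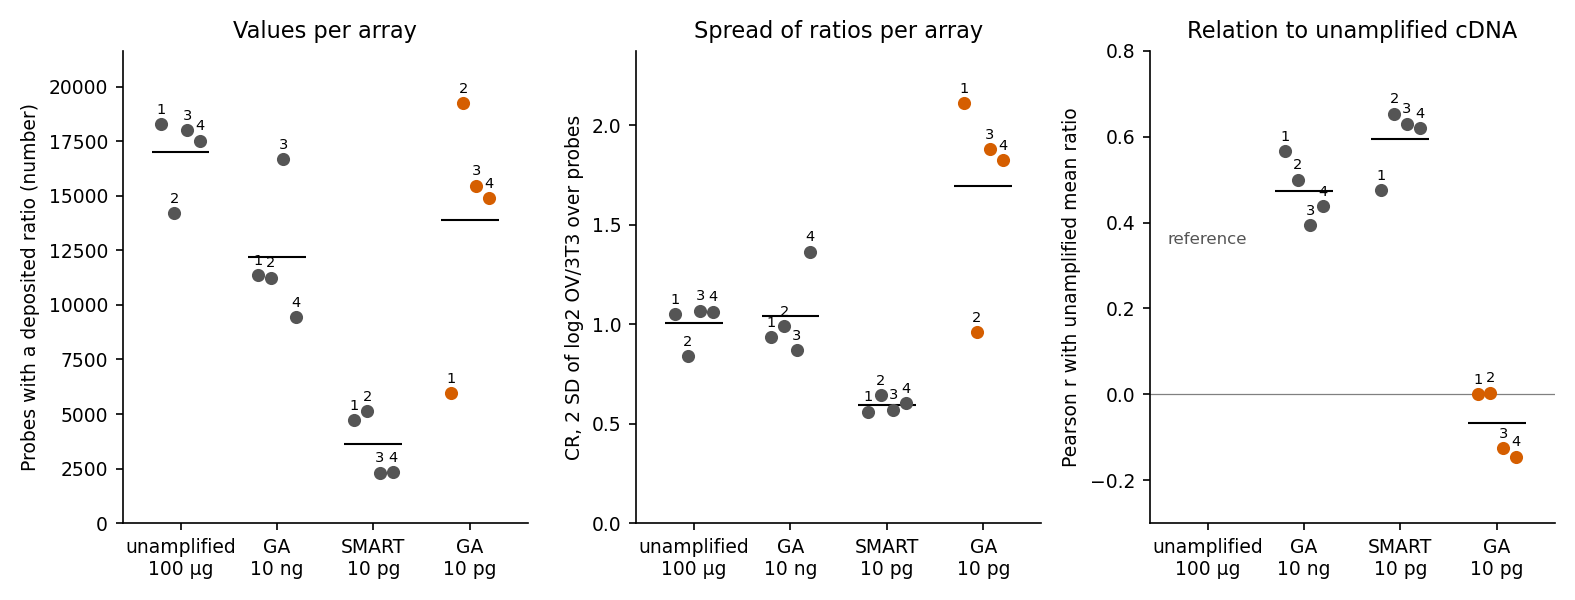
Measures of each array in the 4 sets that compare OV with 3T3: probes with a deposited ratio, CR (2 SD of log2 ratios over probes) and Pearson r with the mean unamplified ratio. Points are arrays, labeled with their hybridization number, lines are means, and the orange GA 10 pg arrays lie at r between -0.15 and 0.00.

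The markers of the lines lay on both sides of 0 on these arrays and did not settle whether the labels are right. Of 12 markers fixed for OV, 11 had a ratio on at least 1 GA 10 pg array; 7 had a positive mean and 4 a negative mean, against 10 positive and 1 negative in unamplified cDNA. The mesothelial transcription factor Wt1 had log2 OV/3T3 of 0.68, 0.24, 1.20 and 1.18 on arrays 1 to 4, and the simple keratin Krt8 had 2.95, 2.13, 0.59 and 1.40. Both were on the OV side on all 4 arrays, as in unamplified cDNA, where they averaged 3.65 and 3.44. The uroplakin Upk1b, at 4.26 ± 0.33 (SD, n = 4) in unamplified cDNA, had -0.13, -0.31, -0.41 and -0.28, and the keratin Krt7, at 2.70 ± 0.58 there, had -0.05, -0.49, -1.51 and -0.73. These lay on the 3T3 side on all 4 arrays, and Msln and Gata4 did the same. None of the 8 OV markers measured on all 4 arrays was called at LOD over 0, where 5.18% of all probes were. At an adjusted p under 0.05 by limma Krt8 passed (0.0325), where 873 of all 5709 probes did.

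Markers of 3T3 gave a like picture. All 11 had at least 1 ratio; 8 had a positive mean and 3 a negative one, against 2 positive and 7 negative of the 9 measured in unamplified cDNA. Cdkn2a, which NIH 3T3 cells have lost and which averaged 1.58 in unamplified cDNA, had no ratio on array 1 and -0.08, -0.41 and -0.25 on arrays 2 to 4. Xist, the RNA of the inactive X chromosome, at 3.21 ± 1.30 (SD, n = 4) in unamplified cDNA, had 0.46, -0.21, -0.35 and -0.29. Signs below follow the labels. The main counts that depend on the direction are also given with the sign turned. Counts for markers and gene lists are given in the labelled direction only, and they depend on it.

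By the empirical Bayes test of limma with a threshold at LOD (the log odds of a difference) over 0, 296 of 5709 probes were called. That is 5.18%, with 149 higher in OV (2.61%) and 147 lower (2.57%). The median size of a called log2 ratio was 2.20. All called probes had 1 sign on the 4 arrays, which the call nearly requires, against 46.1% of all 5709. At an adjusted p under 0.05 the same fit gave 873 probes. There were fewer calls without array 3 (123) or without array 4 (100), and 159 when arrays 1 and 2 and arrays 3 and 4 were treated as random blocks. With arrays scaled to a common spread there were 213, of which 74 were higher and 139 lower, so the even split between directions depends on the scaling.

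None of the 10 genes called with the highest ratios is a marker fixed for OV. Psma6, a proteasome core subunit, had 4.62, 3.61, 3.43 and 3.96 on arrays 1 to 4. Rras, a small GTPase, had 4.30, 3.77, 3.39 and 3.76. Neither was higher in OV in unamplified cDNA, where they averaged -0.45 and -0.15. Ptprj, a receptor tyrosine phosphatase, had 4.37, 3.89, 2.79 and 3.67 and averaged 2.41 in unamplified cDNA. Cyp2s1, a cytochrome P450, had 4.34, 2.69, 3.29 and 3.55 and averaged 1.84 there. These were the only ones of the 10 highest with an unamplified mean above 1. Bex3, an adaptor of neurotrophin receptor signaling, had 4.14, 2.23, 3.29 and 3.03 at one probe and 3.66, 1.41, 2.89 and 2.89 at another, against -0.56 and -0.51 in unamplified cDNA.

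The other 5 of the highest 10 averaged between 3.00 and 3.14. They were Pstpip1, a cytoskeletal adaptor, Emp2, a tetraspan membrane protein, Rbmxl1, an RNA binding protein, Surf1, an assembly factor of cytochrome c oxidase, and Agfg1, a nucleoporin-like protein. Emp2 was the most even, with 2.86, 3.08, 3.30 and 3.29, and averaged 0.01 in unamplified cDNA. A second probe for Pstpip1 went the other way, with -1.21, -0.21, -2.43 and -0.98, so its 2 probes did not give 1 answer.

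Among the lowest, Pqbp1, a splicing-associated protein, had -5.45, -3.76, -3.80 and -3.84 on arrays 1 to 4, against 0.49 ± 0.17 (SD, n = 4) in unamplified cDNA. Emb, a membrane glycoprotein, had -4.13, -2.17, -3.95 and -4.70 and averaged -0.73 in unamplified cDNA. It was the gene of the lowest 10 with the largest unamplified difference in the same direction. Mmp13, a collagenase, had -3.73, -3.05, -2.86 and -3.64 here and 2.43, 2.37, 2.58 and 2.98 on the unamplified arrays. The 2 sets of 4 do not overlap and lie on opposite sides of 0. Of all probes measured in both, 40.4% had no overlap. Ubl3, a membrane-anchored ubiquitin-like protein, had -4.24, -2.63, -3.37 and -3.28 at one probe and averaged -2.91 at a second, against 0.96 in unamplified cDNA at the first.

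Usp45, a deubiquitinase, averaged -3.48 at one probe, while 2 further probes for it had ratios between -0.11 and 0.14 on the 2 or 3 arrays that measured them. The remaining 5 averaged between -3.42 and -3.23. They were Erap1, which trims antigenic peptides, Gcdh, an enzyme of lysine breakdown, Sap130, a subunit of the Sin3 corepressor, Ccnl1, a cyclin linked to splicing, and the olfactory receptor Olfr44. Their unamplified means lay between -0.12 and 0.47 where measured.

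**Figure D2:**
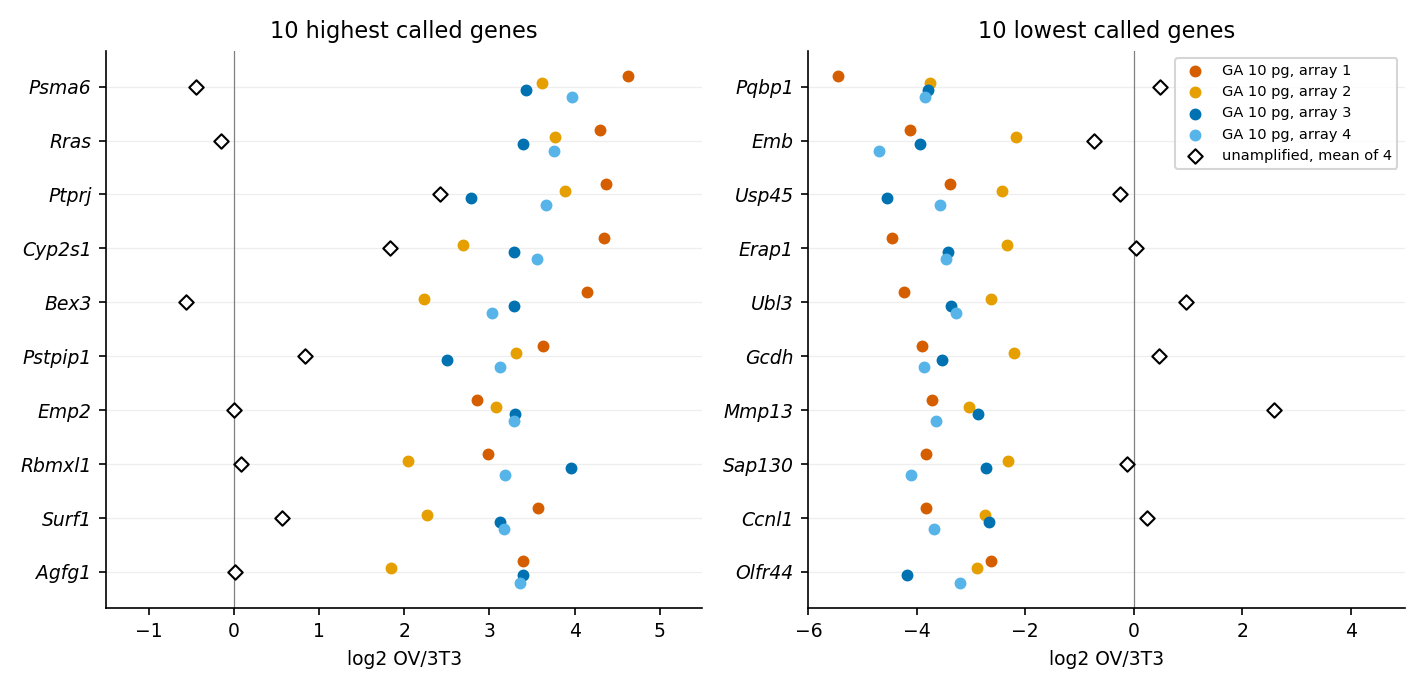
Log2 OV/3T3 on each of the 4 GA 10 pg arrays (colored points) for the 10 highest and 10 lowest called genes, with the mean of 4 unamplified arrays as an open diamond. The 4 points of a gene stay on 1 side of 0, while most diamonds lie near 0; Olfr44 has no diamond because it lacked a ratio on some unamplified arrays.

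Set against unamplified cDNA over all 4848 probes measured in both, the mean GA 10 pg ratio had r = -0.07 and a Spearman rho of -0.08, and 48.1% of probes had the same sign. With the sign turned, r was 0.07. These are correlations across probes, which share arrays and are not replicates. The single arrays gave r of 0.00, 0.00, -0.13 and -0.15. The average of arrays 1 and 2 gave r = -0.00, and that of arrays 3 and 4 gave r = -0.14. On 891 probes measured on all 16 arrays, r with unamplified cDNA was -0.10 for GA from 10 pg, 0.74 for GA from 10 ng and 0.79 for SMART from 10 pg. Each GA 10 pg array thus correlated more with every other one than with the unamplified ratio.

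**Figure D3:**
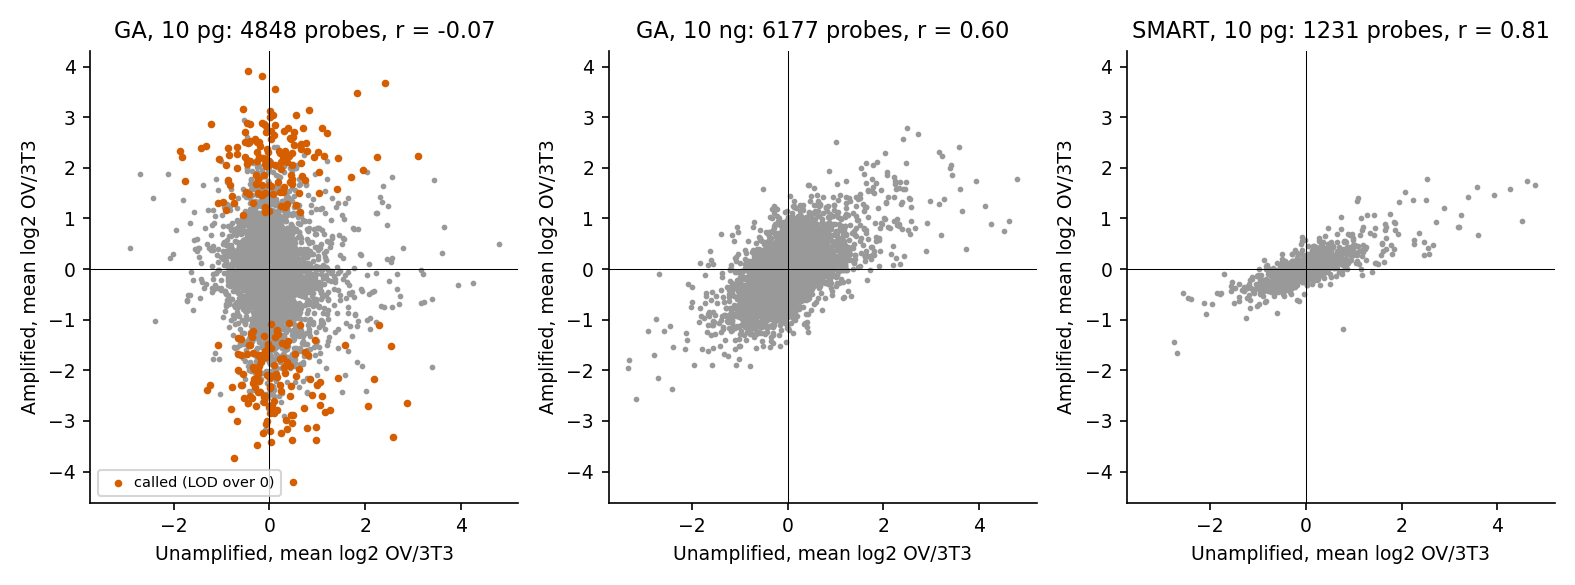
Mean log2 OV/3T3 of each probe in unamplified cDNA (x axis) against GA from 10 pg, GA from 10 ng and SMART from 10 pg (y axes), with called GA 10 pg probes in orange. The GA 10 pg cloud has a weak negative relation in the labelled direction (r = -0.07), while the other panels rise to the right (r = 0.60 and 0.81).

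The probes with a large unamplified difference were also set against it. In unamplified cDNA 745 probes had a mean ratio over 2-fold, and 301 of them were measured on all 4 GA 10 pg arrays. Of these, 120 (39.9%) had the same sign, and the median log2 ratio in the unamplified direction was -0.26, where the unamplified size was 1.38. The same median was 0.72 for GA from 10 ng over 435 probes and 0.48 for SMART from 10 pg over 125 probes, with 91.3% and 97.6% of signs shared. By call, 17 of the 301 were called in the unamplified direction, 22 in the opposite one, and 262 were not called. Among 60 probes over 4-fold, 22 (36.7%) had the same sign. With the sign of the GA 10 pg ratios turned, 181 of the 301 (60.1%) shared the unamplified sign, the median was 0.26, and 22 were called in its direction and 17 in the opposite one. In either direction the share stayed below those of GA from 10 ng and SMART.

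The genes most different between the lines had ratios smaller in size on these arrays than in unamplified cDNA, or opposed ones. Trf, the iron carrier transferrin, at 4.79 ± 0.27 (SD, n = 4) in unamplified cDNA, had 0.96, 0.85, -0.06 and 0.24. Dcn, the proteoglycan decorin, at 3.94 ± 0.29, had 0.17, 0.51, -0.62 and -1.29. Selenop, the selenium carrier of plasma, at 3.60 ± 0.29, had 0.35, 0.57, -0.13 and 0.51. All 3 straddled 0. Of the 10 highest probes, 5 were measured on all 4 arrays, and of these only Wt1 was on the OV side throughout. Among the rest, Atp1b1, at 4.13 in unamplified cDNA, had 0.02, 1.48 and 0.98 on arrays 2 to 4. A second Trf probe, Cxcl12, Igfbp3 and Cxadr each had ratios on both sides of 0. At the low end 2 of 10 were measured on all 4: Klf4, a transcription factor, with 0.00, -0.05, 0.24 and 1.44, and Gstp1, a glutathione transferase, with 0.43, 0.60, 3.03 and 3.45 against -2.70 ± 0.63 in unamplified cDNA.

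The 8 other low-end genes lacked a ratio on 1 or more arrays. The growth factor Kitl, the actin capping protein Capg, the signaling regulator Rgs2, the collagens Col8a1 and Col6a3, the water channel Aqp1, the homeobox factor Prrx1 and the membrane protein Emp1 all had positive ratios on arrays 3 and 4. Rgs2 reached 3.53 and 3.28 on these, against -3.17 in unamplified cDNA. On array 2 their ratios, where present, lay between -0.59 and 0.93. Arrays 3 and 4 therefore put these genes on the OV side, opposite to unamplified cDNA.

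**Figure D4:**
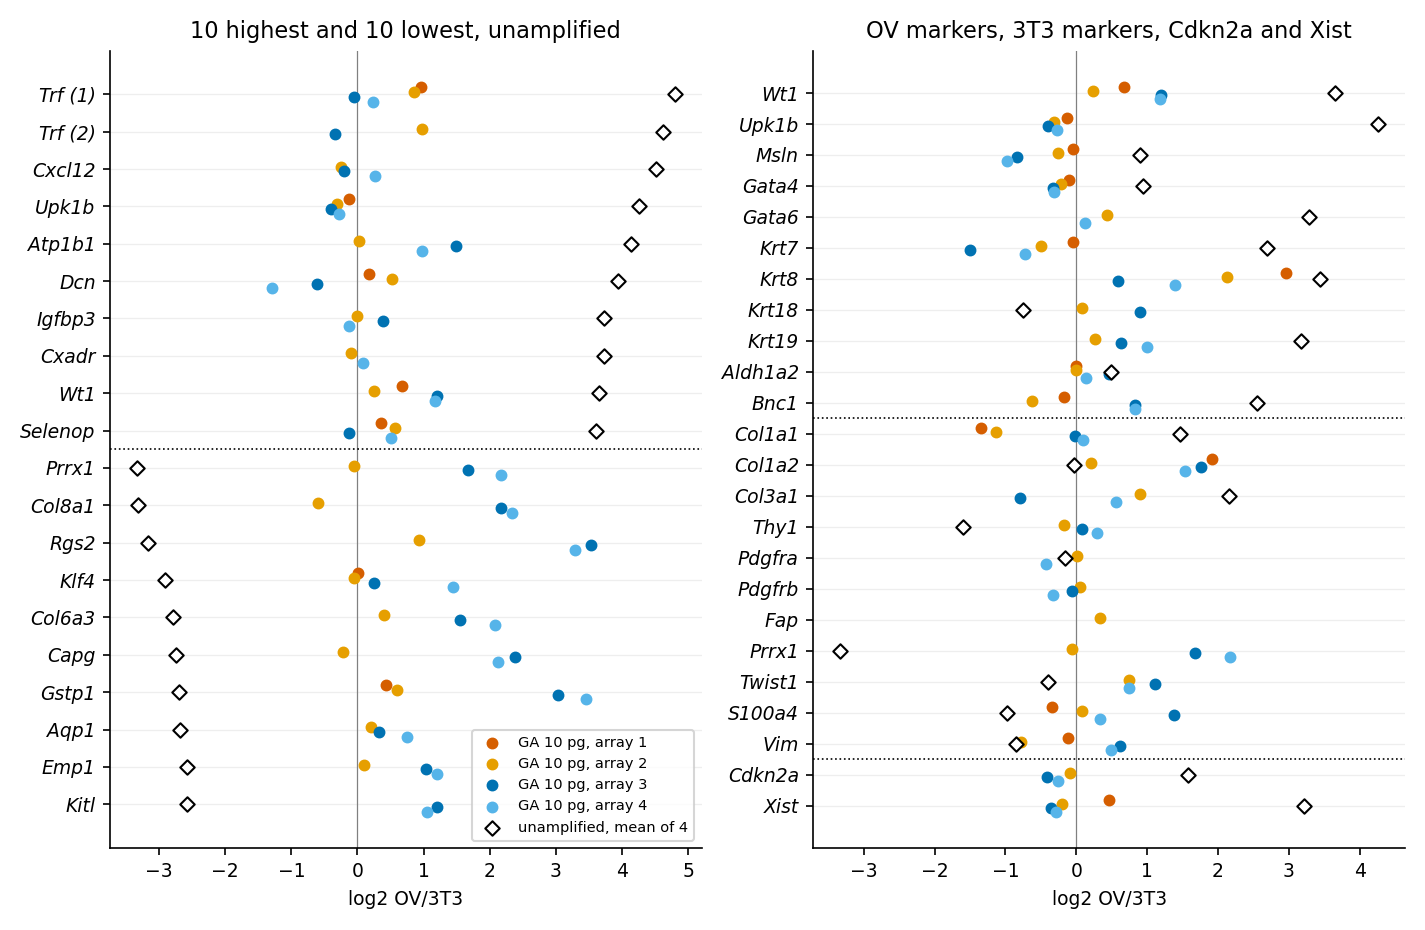
Log2 OV/3T3 on each GA 10 pg array (colored points; missing where the array has no ratio) and the unamplified mean (open diamond) for the 10 highest and 10 lowest unamplified probes, and for OV markers, 3T3 markers and Cdkn2a with Xist, divided by dotted lines. Fap and Pdgfrb have no diamond because they lacked a ratio on some unamplified arrays, and the 2 probes of Trf are numbered.

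Unamplified cDNA called 1963 of 12866 probes (15.3%), 1053 higher (8.18%) and 910 lower (7.07%). Of the 296 GA 10 pg calls, 269 were measured in unamplified cDNA, and 129 of them (48.0%) had the same sign. Over all probes measured in both that share was 48.1%. Both sets called 88 probes, 32.7% of the 269, where unamplified cDNA called 823 of all 4848 probes measured in both. Of the 88, 38 had the same sign (14.1% of the 269) and 50 the opposite sign (18.6%), and the 2 counts change places with the sign turned. The 38 are 4.62% of the 823 unamplified calls measured on all 4 arrays. Of the calls of GA from 10 ng, 90.8% had the unamplified sign and 48.6% were also called there with that sign. For SMART from 10 pg 95.5% had the sign, and 84 of 112 were also called there with it. Over all probes measured in each set and in unamplified cDNA, 69.3% shared the sign for GA from 10 ng and 76.3% for SMART.

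The genes called in both with the same sign, 36 of the 38 probes having a single gene name, were read after their values were known. Of these, 24 were higher in OV. Col6a1, a chain of collagen VI, had 3.33, 2.72, 2.21 and 2.50 and averaged 1.20 in unamplified cDNA. Igfbp7, an insulin-like growth factor binding protein, had 2.39, 1.61, 1.51 and 2.31, a mean of 1.96 in both sets. Ccdc80, a matrix protein, had 2.54, 1.07, 2.57 and 2.68 and averaged 2.25 in unamplified cDNA. For Igfbp7 and Ccdc80 the difference between the sets was -0.00 and -0.04 (adjusted p = 0.99 and 0.94 by limma), which does not show that they are equal. Bmper, a BMP regulator, averaged 2.23 and 3.10, and P4hb, a subunit of collagen prolyl hydroxylase, 1.58 and 1.42. Others were Ptprj, Cyp2s1, Pstpip1, the prostacyclin synthase Ptgis, the actin capping subunit Capzb, the proton pump subunit Atp6v0d1 and the translation regulator Paip2.

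The 12 lower in OV included Cenpa, the centromeric histone, with -4.15, -3.24, -2.06 and -2.58 and -0.67 in unamplified cDNA, and Id2, an inhibitor of helix-loop-helix factors, with -2.33, -1.74, -2.75 and -2.75 and -1.30. Msmo1, a sterol oxidase of cholesterol synthesis, had -2.15, -1.40, -2.62 and -3.00 and averaged -1.23. The ETS factor Etv5 averaged -1.51 and -1.07. The GA 10 pg ratio was larger in size than the unamplified one in all 12, and in 21 of the 24 higher in OV. A call among these more widely spread ratios needs a larger ratio, so the counts are a description.

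Of the 50 probes called in both with opposite signs under the labelled direction, 44 carry a single gene name. All 44 differed between the sets, with a largest adjusted p of 0.000944 by limma, and of 0.0329 with the pairs averaged. Since they were chosen for opposite calls, this is a description, and with the sign turned 33 of the 44 differed. Among them 25 were lower here and higher in unamplified cDNA. F11r, the junctional adhesion molecule JAM-A, had -2.92, -2.01, -2.98 and -2.66 here and 3.80, 3.02, 1.35 and 3.36 in unamplified cDNA. Tjp1, the tight junction scaffold ZO-1, had -3.68, -2.02, -2.12 and -2.89 here and averaged 1.05 there. Neither gene's 2 sets of 4 overlap, which opposite calls nearly require. Over all probes measured in both sets, 1960 of 4848 (40.4%) had no overlap.

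Further members of this group were Mmp13, the crosslinking enzyme Tgm2 and the membrane protein Tmem150a. Tgm2 had -1.85, -1.37, -2.80 and -2.67, against a mean of 2.20 in unamplified cDNA (difference -4.37, adjusted p = 3.28e-05 by limma). Others were Pdia4, a chaperone of the endoplasmic reticulum, at -2.82 against 1.15, Spcs1, a signal peptidase subunit, at -1.70 against 0.81, and Cp, the copper carrier ceruloplasmin, at -2.24 against 1.06. Amh, anti-Mullerian hormone, averaged -1.11 here and 2.28 in unamplified cDNA.

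The other 19 were higher here and lower in unamplified cDNA. Pgk1, a glycolytic kinase, had 1.98, 1.43, 2.74 and 3.17 here and -1.74, -1.93, -1.73 and -2.04 in unamplified cDNA. The difference was 4.19 (adjusted p = 5.97e-05 by limma). Nap1l1, a histone chaperone, had 3.65, 1.19, 2.97 and 3.64 and averaged -1.22 in unamplified cDNA. Npm1, the nucleolar protein nucleophosmin, averaged 2.16 against -1.04, and Hspd1, the mitochondrial chaperonin, 2.26 against -0.85. Rhoa, a GTPase of the actin cytoskeleton, averaged 2.22 against -0.51, and the heme enzyme Blvrb 2.40 against -1.44.

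Over all 4848 probes, the ratio differed from unamplified cDNA at 1677 (34.6%), with 710 higher and 967 lower here. With the assumed dye-swap pairs of each set as a random block 1085 differed, with the pairs averaged 453, and with the sign turned 1405. Of the 301 probes with a large unamplified ratio, 238 (79.1%) differed, 230 of them against the unamplified direction, while 124 (41.2%) differed with the pairs averaged. With the sign turned 203 (67.4%) differed. These probes were chosen for a large unamplified ratio, which is 1 side of the tested difference, so the counts are a description. Without array 1 the test covered more probes and gave 3651. The difference from GA at 10 ng passed at 1004 of 3547 probes (28.3%), and that from SMART at 10 pg at 342 of 1012 (33.8%). With the pairs averaged these counts were 165 and 118, and with the sign turned 802 and 315. These comparisons share the GA 10 pg arrays.

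Psma6 differed in all 3 comparisons, also with the pairs averaged, at 3.91 here against -0.45 in unamplified cDNA, -0.62 with GA from 10 ng and -0.20 with SMART. Rras was at -1.10 with GA from 10 ng, and its difference of 4.90 was the largest from that set by the rule for named genes. Selenos, a selenoprotein of the endoplasmic reticulum, had -2.63, -1.14, -2.59 and -2.89 here against a mean of 1.66 with GA from 10 ng. Pigp, a subunit of the enzyme that begins GPI anchor synthesis, had -3.79, -3.13, -2.95 and -2.59 against 0.48 with SMART. Clu, the chaperone clusterin, had -1.05, -1.58, -2.23 and -2.86 and was not called, against 3.41 in unamplified cDNA and 2.05 with GA from 10 ng.

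Of 25 genes of ovarian surface epithelium and mesothelium on the array, 16 were measured on all 4 arrays and none was called, where 5.18% of all probes were. Their median ratio was -0.17 against 0.94 in unamplified cDNA. Of 15 measured in both sets, 11 differed, all of them lower here, where 34.6% of all probes differed. With the pairs averaged 5 differed, also all lower, where 9.34% of all probes did. Unamplified cDNA called 10 of the measured genes higher and none lower, and its ratio is 1 side of the tested difference. Of the 301 probes over 2-fold in unamplified cDNA, 79.1% differed, and 41.2% with the pairs averaged, so the counts are a description. Over all probes the medians were -0.12 and 0.01. Keratins and epithelial junctions had 9 of 33 genes measured, of which Tjp1 and F11r were called lower. Their median was -0.16 against 0.30, and 5 of 9 had the unamplified sign, against 48.1% of all probes.

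Fibroblast and extracellular matrix genes had 33 of 64 measured, and 4 were called (12.1%), all higher in OV, where 5.18% of all probes were called. Unamplified cDNA called 17 of the measured genes higher and 2 lower, and the median was 0.24 here against 0.71 there. The called genes were Col6a1 and Igfbp7, given above, Col4a2, a basement membrane collagen chain, with 2.52, 2.27, 2.54 and 3.12, and Lox, which crosslinks collagen, with 3.34, 1.85, 1.48 and 2.04. In unamplified cDNA Col4a2 averaged 0.49 and Lox -0.07. Of this list 12 of 32 genes had the unamplified sign, against 48.1% of all probes. Smooth muscle and contractile genes had 10 of 24 measured and none called, with Acta2 at -0.17 against 1.19 and the nonmuscle myosin Myh10 at 0.19 against 1.17.

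Cell cycle genes had 29 of 63 measured, with a median of 0.05 against -0.46 in unamplified cDNA. Cenpa was the 1 called, where 5.18% of all probes were. Of 28 measured in both sets, 12 differed, 11 of them higher here, where 34.6% of all probes differed. With the pairs as a random block 8 differed, and with the pairs averaged none did, where 22.4% and 9.34% of all probes did. Unamplified cDNA called 10 of the measured genes lower and none higher, and its ratio is 1 side of the tested difference. Of 25 genes of sterol and fatty acid synthesis 6 were measured, and Msmo1 was the 1 called.

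Cytosolic ribosomal proteins, among the most abundant mRNAs of a cell, were nearly all measured, at 61 of 62. None was called, where 5.18% of all probes were. Their ratios ranged from -0.74 to 1.17, with an SD over genes of 0.40, against 0.87 over all probes. In unamplified cDNA these SDs were 0.39 and 0.54, so the list was also narrower than all probes there. Rps23, the member lowest in unamplified cDNA among those named, had -0.06, 0.40, 0.71 and 0.41 against a mean of -1.17 there. Of 58 members 33 (56.9%) had the unamplified sign, against 48.1% of all probes.

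Mitochondrial respiratory chain genes had an SD over genes of 1.12 against 0.39 in unamplified cDNA, where all probes had 0.87 against 0.54. Keratins and junctions (1.44) and fibroblast genes (1.17) were spread as widely here or more. Of 45 measured, 5 were called (11.1%), where 5.18% of all probes were. Ndufc2, a complex I subunit, had 3.45, 1.68, 3.25 and 3.17, Cox7c, a cytochrome c oxidase subunit, had 3.04, 2.81, 1.97 and 2.43, and Cyc1, of complex III, had 1.92, 0.91, 1.72 and 1.54. Ndufb11, also of complex I, had -3.52, -2.87, -2.92 and -3.28. Subunits of 1 complex thus lay on opposite sides of 0, and the unamplified means of Ndufc2, Cox7c and Cyc1 were -0.46, -0.31 and -0.48. The fourth called higher was Atp5b, of the ATP synthase, at 1.31 against -0.75.

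Of 12 glycolysis genes measured, Pgk1 was the 1 called, and 3 had the unamplified sign, against 48.1% of all probes. Of 15 chemokines and secreted inflammatory proteins, Tgfb1 was called, with -0.99, -1.37, -2.00 and -1.64 against a mean of 0.35. Of 16 genes of interferon response and antigen presentation, B2m, the light chain of class I molecules, was called, with 1.50, 1.63, 1.63 and 1.93 against 0.47. None of the measured markers of cells that neither line should hold was called, where 5.18% of all probes were. With so few measured, this does not set them apart from all probes. Of 27 immune and endothelial markers 6 were measured, with Cd74 at 0.10, -0.08, -1.74 and -2.10, and of 19 neural and muscle markers 8 were measured, with Tubb3 at -0.65 against -0.68.

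**Figure D5:**
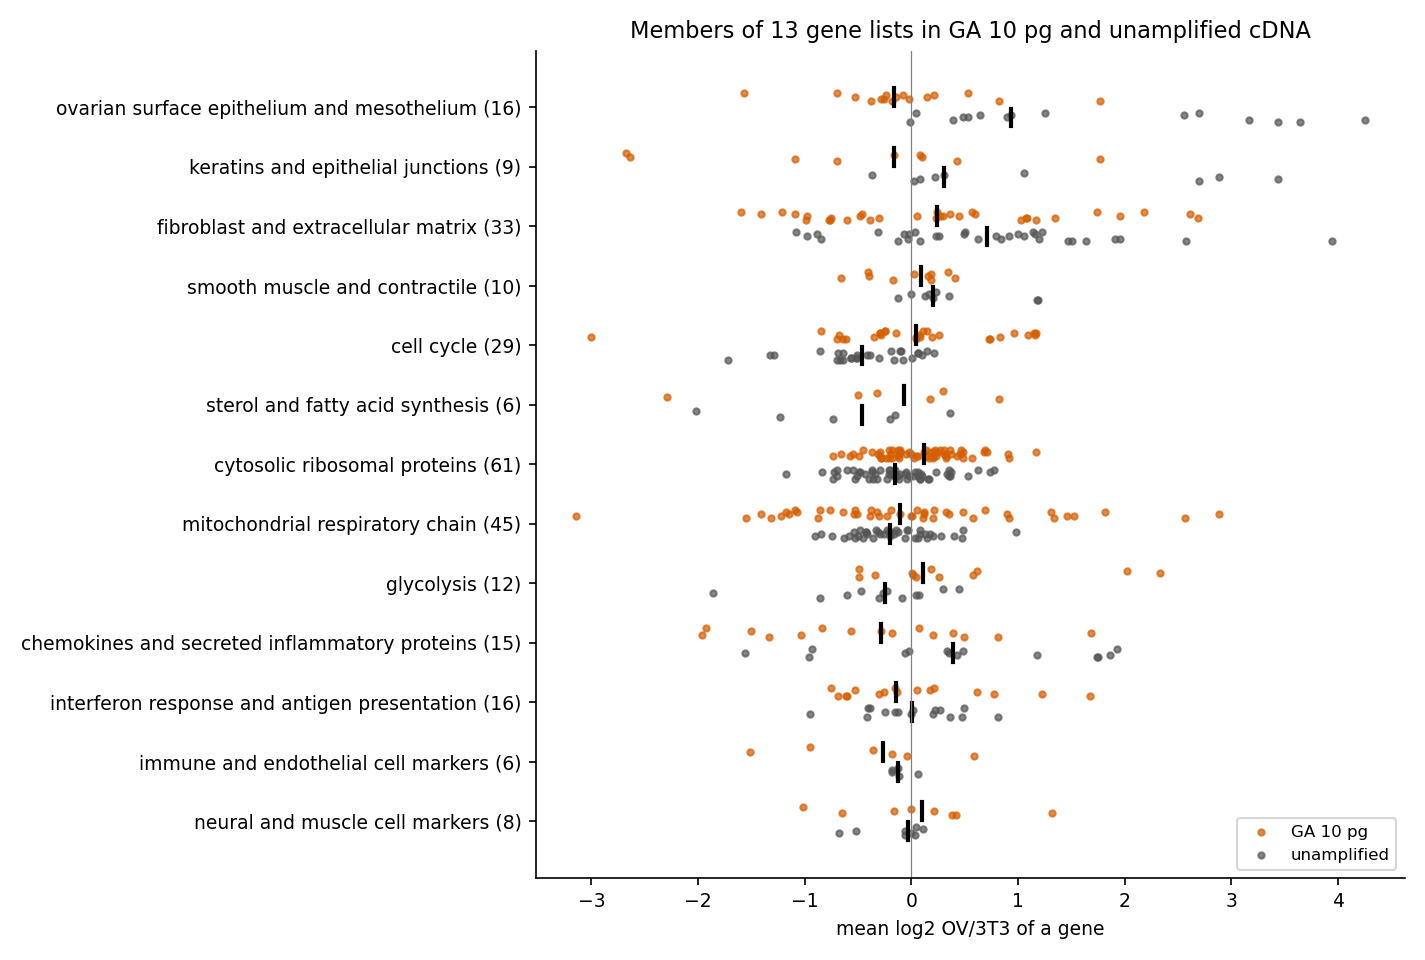
Ratios of the measured members of each gene list in GA from 10 pg and in unamplified cDNA, on a log2 OV/3T3 axis, with medians marked. The surface epithelium list has a median of -0.17 against 0.94, and the respiratory chain list has an SD of 1.12 against 0.39.

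The spread of an array was also given by CR, 2 SD of its log2 ratios. It averaged 1.69 ± 0.505 (SD, n = 4) for GA from 10 pg, 1.01 ± 0.111 for unamplified cDNA, 1.04 ± 0.223 for GA from 10 ng and 0.595 ± 0.0378 for SMART from 10 pg. By an exact two-sided permutation test the difference from SMART gave p = 0.0286, the smallest that 4 against 4 arrays can give, and 0.0857 after adjustment over 3 tests. The differences from unamplified cDNA and GA from 10 ng gave exact p = 0.114 and p = 0.0857, both 0.114 after adjustment. None passed after adjustment.

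A pair of amplifications of the same OV RNA from 10 pg were hybridized against each other on 2 further arrays. Their averaged ratio was over 2-fold at 1582 of 15845 probes (9.98%), where no difference between lines exists. Of probes called higher in OV here, 59.6% had a replica ratio over 2-fold in either direction, against 27.0% of those called lower and 11.6% of those measured but not called. Whether the OV amplifications on these arrays and the replica arrays were the same is not stated, and the part of this spread in the calls was not tested. Where 2 probes of 1 gene were measured, 55 of 92 genes (59.8%) had the same sign at both, with r = 0.34 between probes. In unamplified cDNA the share was 72.5% over 498 genes, with r = 0.74.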

How the data were processed

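The authors deposited log2 ratios of 2 channels, which they background-subtracted after image analysis in GenePix and normalized within print tips by lowess in limma; a spot without a usable value is empty. Probes were named from the platform annotation, 16632 of them with 1 symbol, 139 with several and 4995 with none. The ratios were turned to OV over 3T3 by the dye labels, controls were dropped, and probes with a value on all 4 arrays were fitted with lmFit and eBayes in limma 3.58.1 (R 4.3.3), a prior proportion of 0.01 and a call at LOD over 0. Differences between sets were fitted on 8 arrays and called at a Benjamini-Hochberg adjusted p under 0.05. CR was compared by exact permutation (scipy 1.17.1). The fits were tested on simulated data with arrays drawn independently, which leaves out the correlation within the assumed dye-swap pairs. The members, gene lists, markers and tests were chosen with earlier results of these data known. Named genes were the 10 highest and lowest calls, the 10 highest and lowest unamplified probes where measured, the largest differences, list members by size and the markers; the other genes called in both sets were picked after their values were seen. The number of arrays limits the precision. Hybridization numbers shared between sets did not pair the arrays.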

Additional observations from a re-analysis of the deposited data

Results flagged for a closer look

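In 5 of 72 groups of 4 values, 1 array lay far from the other 3, and chance flags about 1 group in 20. These were Agfg1 on array 2 (1.85), Pqbp1 on array 1 (-5.45), Ndufc2 on array 2 (1.68), Lyz1 on array 4 (-1.23) and Tubb3 on array 3 (-1.61).

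Differences between sets were flagged where limma's test of the difference itself passed. From unamplified cDNA, the ratio was higher for Gstp1 by 4.57, Psma6 by 4.36, Pgk1 by 4.19, Nap1l1 by 4.08 and Ott by 4.04 on the log2 scale. The difference was -5.91 for Mmp13, -5.52 for F11r, -5.34 for Clu, -4.77 for Tmem150a and -4.70 for Pqbp1.

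From GA at 10 ng, the difference was 4.90 for Rras, 4.53 for Psma6, 4.07 for Bex3, -4.55 for Mmp13, -4.03 for Tmem150a and -3.98 for Selenos. From SMART at 10 pg, it was 4.11 for Psma6, 3.53 for Gstp1, 3.44 for Nap1l1, -4.41 for Pqbp1, -3.85 for F11r and -3.60 for Pigp. With the assumed dye-swap pairs averaged, the differences of Gstp1 no longer passed (adjusted p = 0.065 from unamplified cDNA and 0.106 from SMART by limma), and all others named here still did. The cause of none of these was tested.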

How the results depend on the processing

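Against 296 calls, there were 873 at an adjusted p under 0.05, 667 with a prior proportion of 0.05, 196 with a dye term, 159 with pairs of arrays as a random block, 176 with the pairs averaged (chosen after seeing the data) and 100 to 290 when each array was left out. Every called probe kept its sign, which follows from its 1 sign on all 4 arrays. With arrays scaled, 116 of 296 were still called, and 17 of the 41 named called genes. The share of calls with the unamplified sign stayed between 42.4% and 53.6%. The share also called in unamplified cDNA with the same sign, 14.1%, was 19.2% with a prior proportion of 0.05, 28.8% with calls by adjusted p, 9.78% with arrays scaled, 9.55% with pairs averaged and 7.06% to 16.3% with an array left out; the lowest was without unamplified array 1, and 8.79% was without unamplified array 4. Differences from unamplified cDNA numbered 547 at LOD over 0, 3481 with 3 of 4 values and 1100 to 3651 with an array left out, lowest without unamplified array 1. From GA at 10 ng they numbered 308, 1907 and 672 to 1752, the highest without GA 10 pg array 1. From SMART they numbered 119 at LOD over 0 and 256 to 448 with an array left out. CR differences over probes measured on every array of both sets were 0.88 from unamplified cDNA and 0.909 from GA at 10 ng, each with exact p = 0.0286. With an array left out they were 0.549 to 0.933, 0.515 to 0.899 and, from SMART, 0.96 to 1.34, where exact p cannot go below 0.0571. With the assumed dye-swap pairs as a random block the differences numbered 1085 from unamplified cDNA, 424 from GA at 10 ng and 207 from SMART, and with the pairs averaged 453, 165 and 118 (both chosen after seeing the data, as was turning the sign). The causes were not tested.

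With hybridization number as a replicate block, the differences numbered 1442 from unamplified cDNA, 816 from GA at 10 ng and 286 from SMART. Same-numbered arrays deviated together with r from -0.08 to 0.09, so the numbers did not pair the arrays.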
